A study of Mus musculus with 9 samples.

Results

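Voltage-gated sodium channels were represented by 7 genes of the 47593 gene symbols in the deposited tables: the pore-forming alpha subunit genes Scn1a, Scn2a (written Scn2a1 in the tables), Scn3a and Scn8a, and the auxiliary beta subunit genes Scn2b, Scn3b and Scn4b. They were chosen by name, and the level of a gene was the sum of the FPKM of its transcripts, a count of fragments scaled to transcript length and library size. Together they had 53 of the 115220 transcripts listed. All 7 passed the filter on low values, a mean of at least 0.5 FPKM. The libraries hold ribosome-bound RNA of neurons from the mPFC, the medial part of the prefrontal cortex, of adult C57BL/6 mice. It was pulled down by RiboTag, a method in which chosen cells carry an epitope on a protein of the ribosome. There were 3 groups of 3 libraries. In the EWFxr1 group GFP-Fxr1, a fusion of green fluorescent protein (GFP) to a relative of the fragile X protein that binds RNA, was overexpressed in the mPFC, and wake was enforced, as EW in the label stands for. In the EW group GFP alone was overexpressed and wake was enforced, and in the S group GFP alone was overexpressed and the mice slept. All 9 libraries thus carried an overexpressed GFP or GFP fusion, and sleep with GFP-Fxr1 was not analysed here. The labels do not give the promoter or vector of the overexpression, the Cre line, the length of the wake or whether libraries came from separate animals, so p-values measure only the spread between these libraries, which may be technical.

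Sodium channels open when the membrane depolarizes and carry the inward current of the rising phase of the action potential. A single alpha subunit forms the pore and the voltage sensors, and beta subunits, small proteins with an immunoglobulin-like domain outside the cell, modify gating, delivery to the membrane and adhesion. In adult cortex Scn8a is known as the alpha subunit of the distal axon initial segment and of nodes of Ranvier, Scn2a as that of excitatory neurons and their dendrites, Scn1a as that of fast-spiking interneurons, and Scn3a as the form of the embryonic brain.

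Fxr1 itself had 91.1, 67.7 and 71.8 FPKM in the EWFxr1 libraries, 34.8, 33.9 and 31.1 FPKM in EW and 31.7, 34.8 and 31.0 FPKM in S, so each EWFxr1 library lay above all 6 GFP libraries. Depth was estimated at 29900000 to 37300000 fragments per library. EWFxr1 replicate 1 stood apart: on the first principal component, with 56.3% of the variance, its score was -63.1, against -13.1 to 30.6 in the other 8 libraries. Deviations from the mean of the 9 libraries followed the GC content of the transcripts, with Spearman correlations across 11515 genes of -0.81 to -0.25 in EWFxr1, 0.65 to 0.74 in EW and -0.39 to 0.25 in S, which is a description since genes are not replicates. Each difference in gene level was therefore also computed with this trend and that of transcript length removed. Differences of single transcripts were not. The library medians over genes with a mean of at least 1 FPKM also differed. Their group averages were apart by -0.15 between EWFxr1 and EW on the log2(FPKM + 1) scale, by -0.10 between EWFxr1 and S and by 0.06 between EW and S. These are not the medians of gene differences given below. Gene differences after median centring are therefore given where they matter. Defining neuronal markers were abundant in every library, the summed FPKM of 5 pan-neuronal genes being 3435 to 3717 in EWFxr1, 3145 to 3364 in EW and 3501 to 3666 in S. They did not all move with the sum: Rbfox3, the lowest of the 5, had 20.1 to 29.3 FPKM in EWFxr1, 42.5 to 49.7 FPKM in EW and 32.5 to 42.4 FPKM in S. Markers of other cells were present too: 5 astrocyte genes summed to 73.8 to 88.1 FPKM in EWFxr1, 118 to 142 FPKM in EW and 109 to 128 FPKM in S, and 5 oligodendrocyte genes to 115 to 128 FPKM in EWFxr1, 129 to 149.8 FPKM in EW and 88.4 to 138 FPKM in S. The 6 striatal neuron genes summed to 51.3 to 61.5 FPKM in EWFxr1, 55.0 to 63.6 FPKM in EW and 49.4 to 62.3 FPKM in S. The part of these markers in the results below was not tested. No marker of the 9 cell classes examined was listed at 0 in all libraries.

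The genes lie in a few clusters. Scn3a (ENSMUSG00000057182, GRCm38 chr2:65457118-65567627, minus strand), Scn2a (ENSMUSG00000075318, chr2:65620771-65767447, plus strand) and Scn1a (ENSMUSG00000064329, chr2:66270778-66440840, minus strand) follow each other on chromosome 2, with 53143 bases between Scn3a and Scn2a and 503330 bases between Scn2a and Scn1a. Scn8a (ENSMUSG00000023033, chr15:100869858-101045938, plus strand) lies alone. Scn2b (ENSMUSG00000070304, chr9:45117782-45130070) and Scn4b (ENSMUSG00000046480, chr9:45138395-45154152) are 8324 bases apart on the plus strand of chromosome 9, which also holds Scn3b (ENSMUSG00000049281, chr9:40269217-40291618, plus strand). The longest transcripts of the 3 alpha genes on chromosome 2 had a GC content of 42.1% to 43.4%, that of Scn8a 50.8%, and those of Scn3b, Scn2b and Scn4b 47.8%, 50.5% and 54.5%, beside a median of 49.5% over 11515 protein-coding genes. The alpha transcripts, at 8386 to 11436 bases, were longer than the median of 3439 bases. Genes annotated on the opposite strand of Scn1a, Scn3a and Scn2b had at most 0.121 FPKM on average.

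FPKM are scaled to length, so levels are set side by side between genes here. They were not adjusted for GC content, in which the members differ. Scn2a was the most abundant member, with 95.4, 103.9 and 96.1 FPKM in EWFxr1, 101.3, 95.6 and 93.5 FPKM in EW and 122, 120.3 and 101.0 FPKM in S. This placed it above 96.2% of genes with a mean of at least 0.5 FPKM. Scn2b followed with a mean over the 9 libraries of 91.0 FPKM, then Scn8a with 48.6, Scn1a with 26.3, Scn4b with 21.4, Scn3b with 16.0 and Scn3a with 11.2 FPKM. Among neighbours in this order, the ranges over the 9 libraries were apart for Scn2b and Scn8a, whose lowest and highest values were 75.6 and 60.6 FPKM, and overlapped for the other 5 pairs. Within a library the order held more often than the ranges show: each neighbouring pair stood in this order in 8 or 9 of the 9 libraries.

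**Figure D1:**
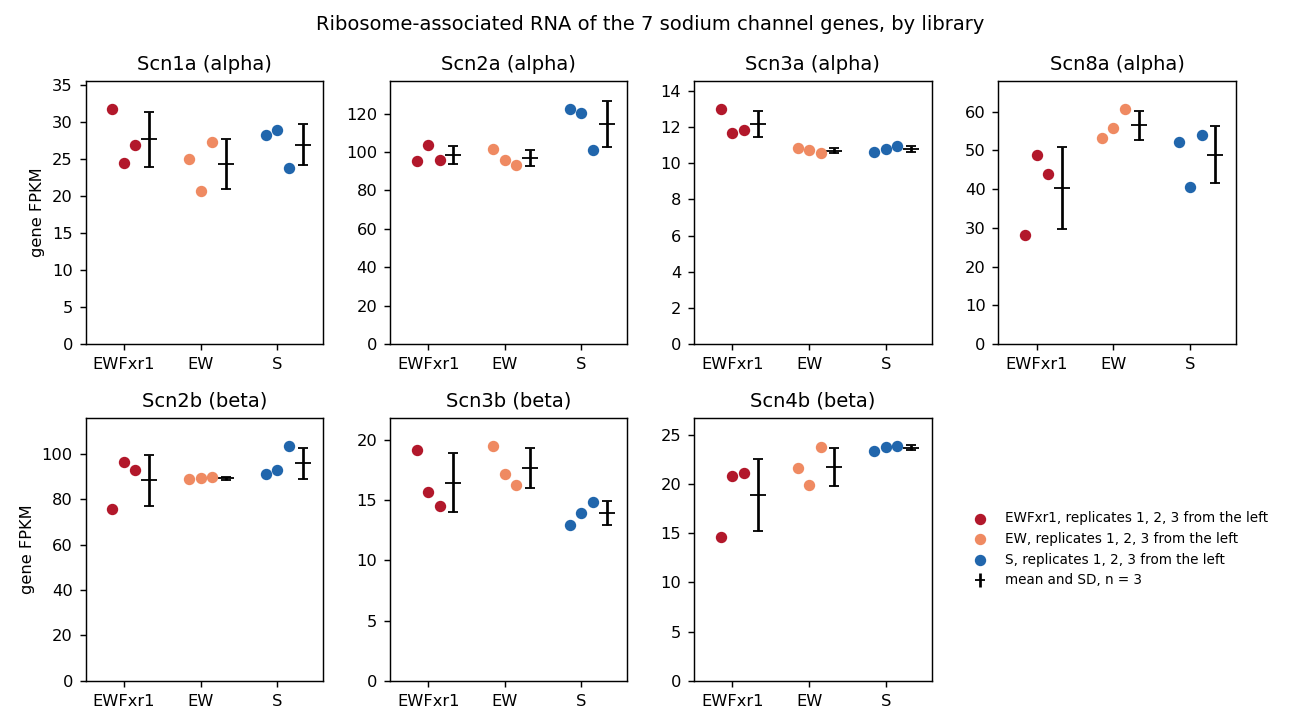
Gene FPKM (y axis, linear, from 0) of the 4 alpha genes (top) and 3 beta genes (bottom) in each library, with EWFxr1, EW and S from left to right. Points are libraries and the black bars beside them are mean and SD (n = 3). The libraries of Scn3b lie at 16.2 to 19.5 FPKM in EW and 12.9 to 14.9 FPKM in S, and EWFxr1 replicate 1 is the lowest library of Scn8a (28.3 FPKM), Scn2b (75.6 FPKM) and Scn4b (14.6 FPKM).

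The first comparison, EW against S, asked how enforced wake moves the RNA on ribosomes in GFP mice. Of the 7 genes only Scn3b passed, higher in EW, in limma with Benjamini-Hochberg adjustment over all genes and a threshold of 0.05. The other 6 did not pass. Over all 14673 genes tested 28.3% passed, 15.7% higher and 12.7% lower in EW. The median difference of the 7 was -0.10 on the log2(FPKM + 1) scale, beside 0.0043 over all genes. The groups did not overlap for 2 of the 7, Scn3b and Scn2b, as for 49.5% of all genes. In RNA from pooled cells, fewer cells of a type and less RNA per cell cannot be told apart.

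Scn3b, a beta subunit that binds the alpha subunit without a covalent bond, had 19.2, 15.7 and 14.5 FPKM in EWFxr1, 19.5, 17.2 and 16.2 FPKM in EW and 12.9, 14.0 and 14.9 FPKM in S. Every EW library was above every S library, while the EWFxr1 libraries overlapped both groups. EW exceeded S by 0.32 (95% interval 0.11 to 0.53, limma adjusted p = 0.0359), and by 0.35 with the GC and length trend removed (limma adjusted p = 0.0248). The call was lost with any library left out (limma adjusted p of 0.0505 to 0.0886) and with median centring (0.0641). It was also lost when only transcripts annotated as protein-coding were summed, which gave a difference of 0.22 (limma adjusted p = 0.110). That sum also left out ENSMUST00000175949, with 17.5% of the gene, which had no annotated type.

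The other beta genes had differences at or below 0. Scn2b and Scn4b, whose proteins are bound to the alpha subunit by a disulfide bond, did not pass. Scn2b had 75.6, 96.2 and 93.0 FPKM in EWFxr1, 88.7, 89.0 and 89.8 FPKM in EW and 90.9, 92.7 and 103.4 FPKM in S. The EW libraries lay just below the S libraries, with a difference of -0.10 (95% interval -0.25 to 0.05, limma adjusted p = 0.277). Scn4b, known for the resurgent current of fast-firing neurons, had 14.6, 20.7 and 21.1 FPKM in EWFxr1, 21.6, 19.8 and 23.7 FPKM in EW and 23.4, 23.7 and 23.8 FPKM in S. EW and S overlapped and differed by -0.12 (95% interval -0.29 to 0.05, limma adjusted p = 0.247). With the GC and length trend removed Scn4b differed by -0.34 and passed (limma adjusted p = 0.0202).

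None of the 4 alpha genes passed between EW and S. Scn2a had the largest difference of the 4, -0.24 (95% interval -0.44 to -0.03, limma adjusted p = 0.0803), with EW replicate 1 and S replicate 3 at nearly the same level. Without S replicate 3 it passed, with a difference of -0.32 (limma adjusted p = 0.0311). Scn8a had 28.3, 48.7 and 43.8 FPKM in EWFxr1, 53.3, 55.7 and 60.6 FPKM in EW and 52.2, 40.6 and 54.0 FPKM in S. EW and S overlapped and differed by 0.21 (95% interval -0.06 to 0.49, limma adjusted p = 0.203). Scn1a had 31.7, 24.4 and 26.8 FPKM in EWFxr1, 25.0, 20.6 and 27.2 FPKM in EW and 28.1, 28.8 and 23.7 FPKM in S. Its groups all overlapped, and EW and S differed by -0.15 (limma adjusted p = 0.380). Scn3a varied least of the 7, with 13.0, 11.7 and 11.9 FPKM in EWFxr1, 10.8, 10.7 and 10.6 FPKM in EW and 10.6, 10.8 and 11.0 FPKM in S. Its difference between EW and S was -0.01, with a 95% interval of -0.14 to 0.12, and 0.08 with the GC and length trend removed (limma adjusted p of 0.876 and 0.280).

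The second comparison, EWFxr1 against EW, asked how Fxr1 overexpression moves the same RNAs in enforced wake. None of the 7 genes passed, while 0.412% of the 14563 genes tested did, 0.0824% higher and 0.33% lower in EWFxr1. That share depended on the libraries and the settings of the fit: without EWFxr1 replicate 1 3316 genes passed instead of 60. With all 9 libraries in the fit 3366 passed, and 236 without that replicate and with the GC and length trend removed. None of the 7 passed in any of these. The median difference of the 7 was -0.02, beside -0.06 over all genes. The groups did not overlap for 2 of the 7, as for 52.5% of all genes: all EWFxr1 libraries were below EW for Scn8a and above EW for Scn3a. Scn8a differed by -0.51 (95% interval -0.99 to -0.03, limma adjusted p = 0.118), by -0.36 after median centring and by -0.38 with the GC and length trend removed. EWFxr1 replicate 1, the library that stood apart, had the lowest value, and without it the difference was -0.28. The marker of cortical excitatory neurons Slc17a7 was low in the same library, with 98.3, 179 and 200.1 FPKM in EWFxr1, 229.8, 239 and 269.7 FPKM in EW and 219, 184 and 229 FPKM in S. The 5 excitatory markers summed to 334 to 463 FPKM in EWFxr1, 498 to 573 FPKM in EW and 446 to 507 FPKM in S, and their part in the Scn8a values was not tested.

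Scn3a, at 11.7 to 13.0 FPKM in EWFxr1 and 10.6 to 10.8 FPKM in EW, differed by 0.17 (95% interval -0.03 to 0.37, limma adjusted p = 0.179), by 0.32 after median centring and by -0.08 with the GC and length trend removed. Scn1a differed by 0.18 (95% interval -0.16 to 0.52, limma adjusted p = 0.353) and by -0.03 with that trend removed. The interneuron marker Pvalb, in whose cells Scn1a is known to be prominent, had 36.0, 44.9 and 38.3 FPKM in EWFxr1, 41.6, 41.4 and 43.7 FPKM in EW and 42.4, 48.2 and 44.1 FPKM in S, and overlapped between EWFxr1 and EW. Gad1 and the sum of the inhibitory markers did not overlap there, each EWFxr1 library being below each EW library: Gad1 had 101.8 to 110.0 FPKM in EWFxr1, 111.7 to 133 FPKM in EW and 106.4 to 140.3 FPKM in S, and the 6 inhibitory markers summed to 326 to 338 FPKM in EWFxr1, 355 to 391 FPKM in EW and 309 to 373 FPKM in S. Their part in the Scn1a values was not tested. Scn2a differed by 0.02 (95% interval -0.17 to 0.22), or -0.19 with the trend removed. Of the beta genes, Scn2b differed by -0.02 (95% interval -0.29 to 0.24), Scn3b by -0.10 (95% interval -0.41 to 0.21) and Scn4b by -0.21 (95% interval -0.59 to 0.17). These also depended on the scaling: Scn2b was at 0.13 and Scn3b at 0.05 after median centring, and Scn4b at 0.21 with the trend removed. Without EWFxr1 replicate 1 Scn4b differed by -0.047 and Scn2b by 0.084.

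The third comparison, EWFxr1 against S, shares its libraries with the other comparisons. None of the 7 genes passed, beside 7.79% of 14617 genes, 3.2% higher and 4.58% lower. The median difference of the 7 was -0.12, beside -0.09 over all genes. The groups did not overlap for Scn3a and Scn4b, as for 32.7% of all genes. Scn4b differed by -0.33 (95% interval -0.64 to -0.02, limma adjusted p = 0.151), Scn2a by -0.21 (limma adjusted p = 0.159), Scn8a by -0.30 (limma adjusted p = 0.315) and Scn2b by -0.12 (limma adjusted p = 0.430). Scn3b differed by 0.22 (limma adjusted p = 0.239), Scn3a by 0.16 (limma adjusted p = 0.171) and Scn1a by 0.03 (limma adjusted p = 0.880). With the GC and length trend removed Scn2a stood at -0.35 (limma adjusted p = 0.0559), Scn4b at -0.13, Scn3a at -0.0054 and Scn1a at -0.10. Without EWFxr1 replicate 1, the library that stood apart, Scn8a differed by -0.070, Scn2b by -0.014 and Scn4b by -0.17. Scn3b then differed by 0.11, Scn3a by 0.11 and Scn2a by -0.19, and Scn1a turned to -0.065.

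**Figure D2:**
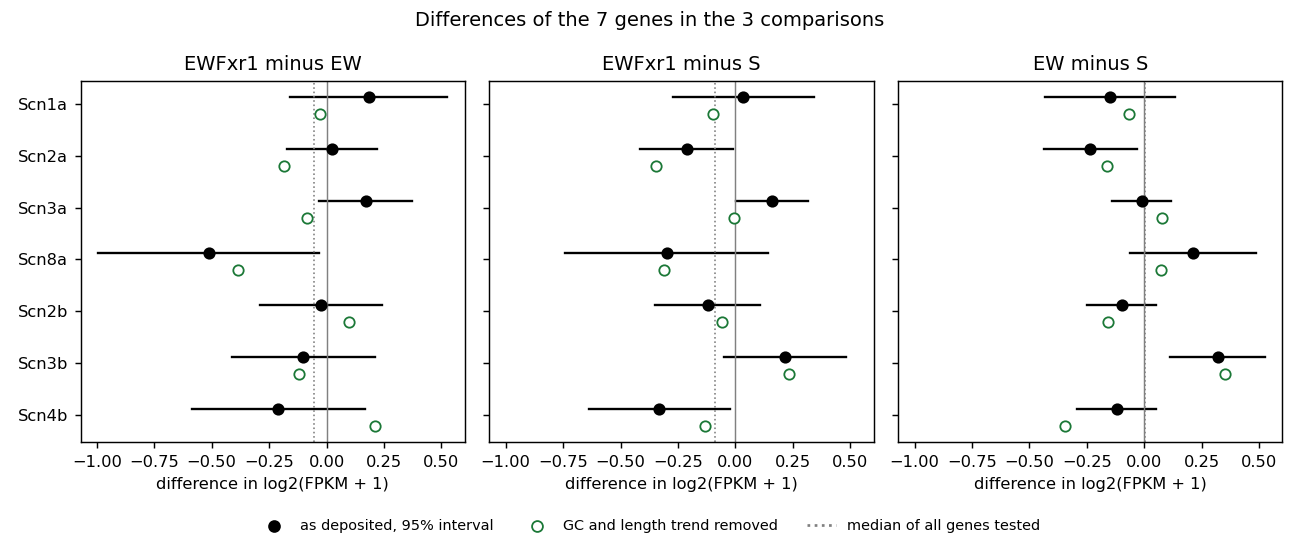
Difference in log2(FPKM + 1) (x axis) of each gene in the 3 comparisons. Black points are values as deposited with 95% intervals from limma, open points have the GC and length trend removed, and the dotted line is the median of all genes tested. Scn3b in EW minus S, at 0.32, is the only gene that passed the adjusted threshold as deposited; Scn4b changes from -0.21 to 0.21 in EWFxr1 minus EW with the trend removed.

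The balance of alpha and beta RNA overlapped between the 3 groups. The 4 alpha genes summed to 179 ± 10.2 FPKM in EWFxr1, 188 ± 4.98 FPKM in EW and 201 ± 11.8 FPKM in S (mean ± SD, n = 3 each). The 3 beta genes summed to 124 ± 12.4 FPKM in EWFxr1, 129 ± 2.14 FPKM in EW and 133 ± 7.84 FPKM in S. The alpha share of the total was 60.6%, 58.7% and 58.1% in EWFxr1, 59.5%, 59.2% and 59.6% in EW and 62.6%, 60.6% and 57.2% in S. No test was made of this share since the members were chosen by name.

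Of the other alpha genes, Scn7a, which encodes a sodium-sensing relative of the channels, had 2.71, 2.01 and 2.19 FPKM in EWFxr1, 1.58, 1.57 and 1.55 FPKM in EW and 1.87, 2.29 and 1.88 FPKM in S and passed in none of the comparisons as deposited. After median centring it differed by -0.29 between EW and S and passed (limma adjusted p = 0.0498). With the GC and length trend removed it differed by -0.10 there and did not pass (limma adjusted p = 0.280). Between EWFxr1 and EW it differed by 0.36, or 0.05 with the trend removed. Its GC content was 40.2%. Scn4a, known from skeletal muscle, and Scn9a, Scn10a and Scn11a, known from sensory neurons, had at most 0.305 FPKM in any library.

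Alternative exons set the transcripts of the alpha genes apart. Scn2a and Scn8a each have an early exon in 2 versions, of which a transcript holds only 1: 5N, the neonatal form, and 5A, the adult form. They encode alternative versions of a voltage-sensing stretch in the first of the channel's repeated domains. Scn8a also has an exon, 18, without which the protein lacks part of its domain III. Exon 18 is shown because a transcript without it set the EW libraries apart. Its sequence is from GENCODE M21 transcripts of GRCm38, chr15:101024261-101024383, plus strand, 5′ to 3′, with no base in capitals since no single base is compared.
Scn8a 18: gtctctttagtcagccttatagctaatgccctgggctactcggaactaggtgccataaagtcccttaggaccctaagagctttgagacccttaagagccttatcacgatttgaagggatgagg
Exon 18 has 123 bases, a multiple of 3.

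Of the 53 member transcripts, 30 could be tested between EW and S and 28 between EWFxr1 and EW. A transcript of Scn8a, ENSMUST00000200963, passed in both, higher in EW than in S and lower in EWFxr1 than in EW, and a transcript of Scn2b passed, higher in EWFxr1 than in EW. Over all transcripts tested 3.62% of 29116 passed between EW and S, 2.05% higher, and 0.895% of 28837 between EWFxr1 and EW, 0.284% higher and 0.61% lower. The groups did not overlap for 32.8% and 34.2% of these transcripts. The Scn8a transcript lacks exon 18, holds 5N and is annotated as a coding sequence without UTRs, with 25 exons and 5814 bases. It had 1.13, 0.510 and 0.634 FPKM in EWFxr1, 21.7, 22.5 and 24.0 FPKM in EW and 0.484, 0.726 and 0.390 FPKM in S. Every EW library was thus at least 21.7 FPKM and every other library at most 1.13 FPKM. The difference between EW and S was 3.96 (SE 0.11, limma adjusted p = 0.000415), and between EWFxr1 and EW -3.77 (SE 0.17, limma adjusted p = 0.00121). Both comparisons use the same EW libraries. With the replicate number added to the fit this transcript passed in neither. The GC trend was not removed from transcript values. In the authors' deposited table the fold was 0.0706 for S over EW (q = 0.188) and 0.0718 for EWFxr1 over EW (q = 0.284), so neither had an authors' q-value below 0.05.

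The gene as a whole did not pass in any comparison. Transcripts that hold exon 18 had 24.7, 45.5 and 41.4 FPKM in EWFxr1, 29.5, 30.8 and 33.8 FPKM in EW and 49.6, 37.7 and 51.6 FPKM in S, so that all EW libraries were below all S libraries and overlapped with EWFxr1. The transcript without exon 18 held 4.36%, 1.11% and 1.51% of the FPKM of both forms in EWFxr1, 42.4%, 42.2% and 41.6% in EW and 0.967%, 1.89% and 0.750% in S. This form is 1 transcript that also holds 5N and is annotated without UTRs. Use of exon 18, use of 5N and the transcript ends therefore cannot be told apart in its values. The 5N share of transcripts with either copy was 5.50%, 3.19% and 54.5% in EWFxr1, 75.7%, 43.9% and 74.3% in EW and 4.12%, 4.13% and 3.55% in S. It was low in all S libraries and varied within the other groups, since a second 5N transcript, ENSMUST00000082209, had 21.5 FPKM in EWFxr1 replicate 3, 16.7 and 18.5 FPKM in EW replicates 1 and 3 and at most 0.575 FPKM elsewhere. No test was made of these shares: they were chosen with the transcript values known, and an exact permutation test of 3 against 3 libraries cannot go below 0.1. The tables give no reads per exon or junction, so the shares are those of the authors' transcript estimates.

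**Figure D3:**
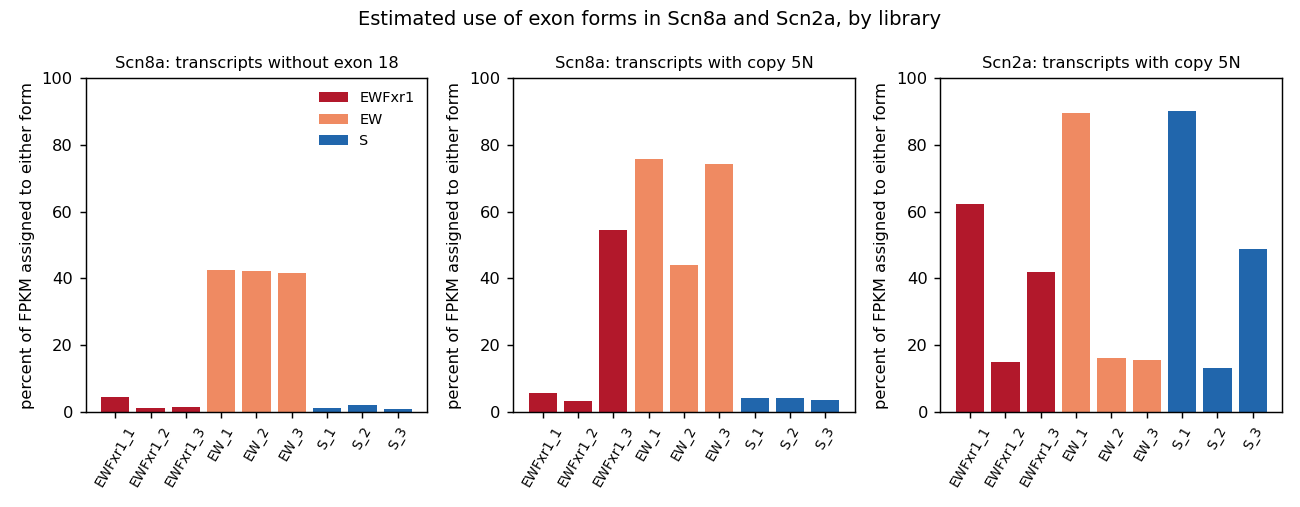
Share, in percent, of the estimated FPKM that fell to Scn8a transcripts without exon 18 (left), Scn8a transcripts with 5N (middle) and Scn2a transcripts with 5N (right), each out of the transcripts assigned to either form, by library in the order EWFxr1, EW, S. The 3 EW libraries stand at 41.6% to 42.4% on the left, with the other 6 at 0.750% to 4.36%; on the right libraries of the same group differ as much as libraries of different groups.

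The shares of the Scn2a transcripts varied widely within groups, and the gene itself varied within S, at 101.0 to 122 FPKM. Scn2a 5N transcripts held 62.4%, 14.8% and 42.0% of the FPKM in EWFxr1, 89.6%, 16.1% and 15.6% in EW and 90.2%, 13.1% and 48.7% in S. Replicate 1 had the highest share in every group, near 90% in EW and S, and the others of those groups were far below. Replicate 2 was at 13.1% to 16.1% in every group. The leading transcript was ENSMUST00000100067 (5N) in EW replicate 1 with 76.0 FPKM and in S replicate 1 with 91.4 FPKM, ENSMUST00000028377 (5N) in EWFxr1 replicate 1 with 51.6 FPKM, and ENSMUST00000200829 (5A) in the other 6 libraries, with 50.3 to 100.3 FPKM. In the annotation the 5A transcript, with 6348 bases, has a shorter 3′ UTR than the 5N transcripts, with 8690 and 8935 bases, so exon use and 3′ end cannot be told apart in these values. None of these Scn2a transcripts passed, with limma adjusted p of 0.414 or more between EW and S and 0.329 or more between EWFxr1 and EW.

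Scn2b had the other transcript that passed. ENSMUST00000093855 had 39.6, 38.5 and 45.3 FPKM in EWFxr1 and was listed at 0 in all 3 EW libraries, and was listed at 0, 39.0 and 78.2 FPKM in S (limma adjusted p = 0.000189 for EWFxr1 against EW; q = 0.0127 in the authors' deposited table). The S group therefore held both a library at 0 and the highest value. With the replicate number added to the fit, the call between EWFxr1 and EW was lost. The only other Scn2b transcript, ENSMUST00000170998, had the rest: 35.9, 57.7 and 47.7 FPKM in EWFxr1, 88.7, 89.0 and 89.8 FPKM in EW and 90.9, 53.7 and 25.2 FPKM in S. The transcripts share the same coding region of 645 bases and differ in their start and in a spliced stretch of the 3′ UTR. The gene sums of EWFxr1 and EW, at 75.6 to 96.2 FPKM and 88.7 to 89.8 FPKM, overlapped.

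**Figure D4:**
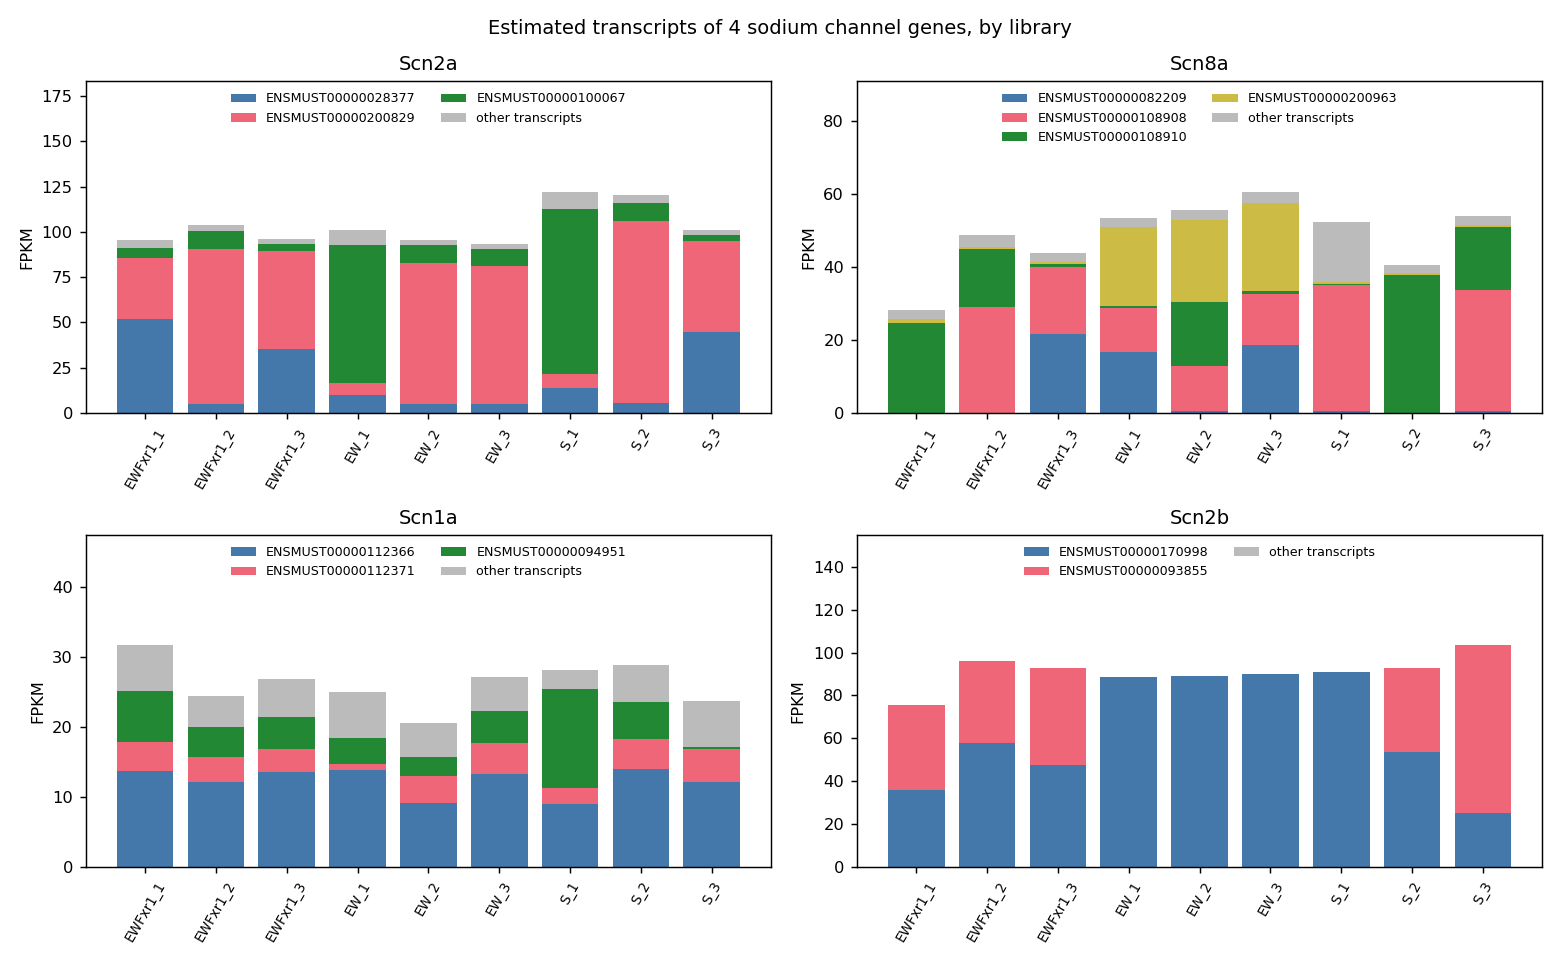
FPKM (y axis, linear, from 0) of the transcripts of Scn2a, Scn8a, Scn1a and Scn2b in each library, stacked, in the order EWFxr1, EW, S. Colours are transcripts with at least 10% of the gene and grey is the rest. In Scn8a the yellow segment, ENSMUST00000200963, is at 21.7 to 24.0 FPKM in EW and at most 1.13 FPKM elsewhere; in Scn2a the leading colour changes between libraries of the same group.

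In Scn1a an exon occurs in 3 lengths, 381, 348 and 297 bases. The longest form led, with 50.0%, 55.2% and 58.3% of the FPKM of these forms in EWFxr1, 59.0%, 51.0% and 52.9% in EW and 34.1%, 54.6% and 60.8% in S. S replicate 1 stood apart, with 53.8% in the shortest form, against 1.18% in S replicate 3. None of the Scn1a transcripts passed. Scn3a had nearly all of its FPKM, 93.9%, in ENSMUST00000100069, and Scn4b had a single transcript. In Scn3b the transcripts were spread: ENSMUST00000171835, with 645 coding bases, had 5.01, 5.23 and 4.61 FPKM in EWFxr1, 9.45, 5.66 and 5.12 FPKM in EW and 5.25, 4.94 and 5.21 FPKM in S, with EW replicate 1 the highest library. It did not pass between EW and S (limma adjusted p = 0.482), nor did any other Scn3b transcript. Among the 6 members with several transcripts the leading transcript changed within a group in 5, all but Scn3a. It did so in 1743 of 4695 genes with 2 or more transcripts and a mean of at least 10 FPKM (37.1%).

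Genes that act with the channels were read as lists beside them. The lists were chosen with earlier results of these data known, so the shares of all genes set beside them are a description only. The intracellular fibroblast growth factors Fgf11 to Fgf14 bind the inner tail of alpha subunits and shift their inactivation. Between EW and S 3 of the 4 were lower in EW and none higher, beside 12.7% of all genes lower, with a median of -0.40. Fgf14 had 37.6, 28.9 and 30.1 FPKM in EWFxr1, 24.9, 24.4 and 23.8 FPKM in EW and 34.0, 38.9 and 35.2 FPKM in S. All its EW libraries were below all others, and it fell by 0.54 (SE 0.07, limma adjusted p = 0.00393) in EW against S. Fgf12, the most abundant of the list, had 155, 117 and 111 FPKM in EWFxr1, 93.5, 87.4 and 82.3 FPKM in EW and 121, 139 and 118 FPKM in S. It differed by -0.52 (SE 0.08, limma adjusted p = 0.00838) in the same comparison. Both passed with the GC and length trend removed, at -0.34 and -0.38 (limma adjusted p of 0.00355 and 0.00927), while Fgf13 passed as deposited, at -0.29, and not with the trend removed (limma adjusted p of 0.0192 and 0.0587). Between EWFxr1 and EW none of the 4 passed: Fgf12 differed by 0.53, Fgf14 by 0.38 and Fgf13 by 0.25 (limma adjusted p of 0.0880 to 0.130), and Fgf14 by 0.05 with the trend removed. None passed between EWFxr1 and S, but Fgf14 did with the trend removed, at -0.29 (limma adjusted p = 0.00485).

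Of 9 genes of the axon initial segment and nodes, where the channels are anchored, 3 were higher and 1 lower in EW than in S, beside 15.7% and 12.7% of all genes, with a median of 0.23, or 0.094 with the GC and length trend removed. Trim46, which bundles microtubules at the initial segment, had 4.37, 9.81 and 11.1 FPKM in EWFxr1, 17.0, 15.5 and 17.6 FPKM in EW and 10.5, 6.77 and 9.64 FPKM in S. EW was above S in every library, by 0.85 (limma adjusted p = 0.0106), but by 0.11 when only protein-coding transcripts were summed (limma adjusted p = 0.576). The adhesion protein gene Nfasc was higher by 0.50 and the master scaffold Ank3 by 0.32, and Nrcam, another adhesion protein gene, fell by 0.25 (limma adjusted p of 0.0120, 0.0252 and 0.0146). Ank3 was at 0.20 and did not pass when only protein-coding transcripts were summed (limma adjusted p = 0.110). With the GC and length trend removed the same 4 genes passed, Trim46 at 0.48, Nfasc at 0.24, Ank3 at 0.26 and Nrcam at -0.21. None of the 9 passed between EWFxr1 and EW, with a median of -0.15, or between EWFxr1 and S.

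Among regulators of the channel RNA, 2 of the 7 tested were higher in EW than in S, beside 15.7% of all genes, and none lower. Celf4, which binds messenger RNAs of neurons including that of Scn8a in mouse, had 63.9, 54.1 and 53.1 FPKM in EWFxr1, 97.9, 91.6 and 95.4 FPKM in EW and 54.2, 52.7 and 54.9 FPKM in S. The EW libraries stood above all others, and EW exceeded S by 0.81 (SE 0.05, limma adjusted p = 0.00101), or 0.80 with the trend removed. Between EWFxr1 and EW Celf4 differed by -0.73 (SE 0.10) and did not pass (limma adjusted p = 0.0511). Rbfox2, a splicing factor of the family known to act on exon 18 of Scn8a, had 44.2, 46.3 and 68.3 FPKM in EWFxr1, 71.5, 69.7 and 71.1 FPKM in EW and 55.4, 52.3 and 54.8 FPKM in S. It was higher by 0.38 in EW than in S (limma adjusted p = 0.00504) and by 0.25 with the trend removed (limma adjusted p = 0.00962). Rbfox1, of the same family and more abundant, had 126, 118 and 116 FPKM in EWFxr1, 109, 111 and 116 FPKM in EW and 122, 125 and 121 FPKM in S. Its EW libraries were all below its S libraries, and it passed in no comparison. Rbfox3 differed by 0.29 between EW and S and by -0.79 between EWFxr1 and EW (limma adjusted p of 0.0896 and 0.0878). With the trend removed these were -0.059 and -0.078. Pum2, which in rat neurons represses translation of sodium channel RNA, did not pass in any comparison, and Rest was below the filter on low values. The median of the 7 was 0.12 between EW and S and -0.27 between EWFxr1 and EW, or 0.0066 and -0.078 with the trend removed.

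In the remaining lists 3 of 14, 2 of 4 and 2 of 8 genes passed between EW and S, beside 28.3% of all genes. Of 14 regulators of the channel protein, Csnk2b, the regulatory subunit of casein kinase, was higher in EW than in S by 0.27, and its catalytic partner Csnk2a1 and the calmodulin gene Calm2 were lower, with differences of -0.27 and -0.30 (limma adjusted p of 0.0417, 0.0138 and 0.0371). With the trend removed Csnk2b stood at 0.16 and Calm2 at -0.075, neither passing (limma adjusted p of 0.0921 and 0.260), and Csnk2a1 at -0.14 (limma adjusted p = 0.0493). Nedd4l, a ubiquitin ligase that acts on sodium channels, was the only gene of these lists that passed between EWFxr1 and S as deposited. It had 31.6, 31.1 and 31.7 FPKM in EWFxr1, 29.6, 28.7 and 28.9 FPKM in EW and 26.6, 26.4 and 25.8 FPKM in S, so the 3 groups did not overlap. EWFxr1 exceeded S by 0.25 (limma adjusted p = 0.0386). It did not pass in a fit of the 6 libraries alone (limma adjusted p = 0.138) or when any library but EWFxr1 replicate 1 was left out (limma adjusted p of 0.0619 to 0.143). In the complex of the sodium leak channel, which is open at rest, Unc79 was higher in EW than in S by 0.29 and Nalcn, the pore, differed by -0.22 (limma adjusted p of 0.0207 and 0.0450). With the trend removed Unc79 stood at 0.18 and passed, and Nalcn at -0.15 and did not (limma adjusted p of 0.0441 and 0.0772). Of 8 pore subunits of calcium channels, Cacna1g and Cacna1h, both of the low-voltage type, were higher in EW, by 0.53 and 0.54 (limma adjusted p of 0.0229 and 0.0223), and by 0.12 and 0.07 without passing when the trend was removed. With the trend removed 1 of the 8 passed as lower in EW than in S. Between EWFxr1 and S, Unc79 at 0.24 and Cacna1b at -0.26 then passed (limma adjusted p of 0.0275 and 0.0229). The medians between EW and S were 0.01 for the regulators of the protein, -0.04 for the leak channel and 0.22 for the calcium channels, and between EWFxr1 and EW 0.04, 0.03 and -0.35. With the trend removed they were -0.033, -0.098 and 0.021 between EW and S, and 0.031, 0.080 and 0.016 between EWFxr1 and EW. None of the genes of these lists passed between EWFxr1 and EW. With 1 library left out in turn, Fgf12, Fgf14, Trim46, Nfasc, Csnk2a1, Celf4 and Rbfox2 passed between EW and S in all 6 cases, and the other list genes named as higher or lower there lost the call in at least 2 of 6. With all 9 libraries in 1 fit, Fgf12, Fgf14, Nrcam, Celf4 and Unc79 passed there. Trim46, Nfasc, Ank3 and Rbfox2 did not (limma adjusted p of 0.0971 to 0.163), nor did the other list genes named as higher or lower.

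The genes whose values over the 9 libraries were most like each member were found among 11546 genes, by the root mean square difference of log2(FPKM + 1) centred on its own mean. For Scn8a they were Cbx6, Carm1 and Dgcr14, at 0.0469 to 0.0571, where the spread of Scn8a itself was 0.306. For Scn2a they were Magee2, Vdac1 and Tbc1d5, for Scn1a Cdh10, Rbms3 and Qser1, and for Scn3a Ppp1r12a, Gdap2 and Ttc37. For Scn2b they were Pomk, Ap3m2 and Atp6v0a1, for Scn3b Mrps6, Hadhb and Ago4, and for Scn4b Zfp692, Acox3 and Kalrn. No member was among the 3 most like genes of another member. The likeness is a description of these libraries, and the libraries share the trend with GC content given above.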

How the data were processed

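The authors deposited 2 tables of transcript FPKM, 1 with EWFxr1 and EW libraries and 1 with S and EW libraries, per the file headers; the EW values were identical in both, so the 9 libraries were set side by side. Per the labels' protocols, a kit for stranded total RNA was used. HISAT2 2.1.0, SAMtools 1.9, StringTie 1.3.4d and the build GRCm38 are named in the submitters' processing notes. The authors also deposited a fold (ratio) with a p-value and q-value per transcript, per the file headers. For the tool behind them, no name was given in the sources used here. Their direction, S over EW and EWFxr1 over EW, was checked on transcripts whose group means differed by over 1.5 times: it was that of the FPKM in 88.5% and 90.6%.

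Transcript FPKM were summed by gene symbol. The log2(FPKM + 1) values were tested by moderated linear models (limma 3.58.1, R 4.3.3, lmFit and eBayes with trend), two-sided, with Benjamini-Hochberg adjustment over all genes or transcripts with a mean of at least 0.5 FPKM and a threshold of 0.05. Differences on this scale understate the change of low genes. EW against S and EWFxr1 against EW were fitted on their own 6 libraries, EWFxr1 against S on all 9. No count model was run on FPKM. Depth estimates come from the step of FPKM times length that a single fragment gives. FPKM are also relative to the library total, and transcripts that share exons can trade estimated FPKM. The GC and length trend was fitted per library with splines (5 degrees of freedom) over protein-coding genes and subtracted, together with any biological change related to GC content. The code was tested on simulated data. GENCODE M21 held 47310 of the 47729 gene identifiers. Protein-coding transcripts were those so annotated there, so sums over them also leave out transcripts that it did not hold.

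Across genes, the deviations of same-numbered libraries gave no sign of pairing. Their correlations were -0.26 to 0.18, beside -0.40 to 0.44 for libraries with different numbers. With 3 libraries per group such correlations cannot exclude a pairing. The Scn2a 5N share was highest in replicate 1 of every group and 13.1% to 16.1% in every replicate 2. The Scn8a 5N share was highest in replicate 1 in EW only. Whether replicate numbers pair the libraries was not tested further. All 7 members are described. Of each other list the count passing, the median and up to 4 genes with the smallest p were taken, and transcripts with at least 10% of a member or passing the test. Members and lists were chosen with earlier results of these data known. Alternatives were a pseudocount of 0.1, no filter, median centring, the trend removed, a replicate block, other libraries in the fit, protein-coding transcripts only and leaving out each library. Single transcripts were run only with the pseudocount, no filter, the block and leaving out each library. Some genes and sequences are not reported here.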

Additional observations from a re-analysis of the deposited data

How the results depend on the processing

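All counts are of limma calls. Among the 7 genes, the count passing between EW and S, 1 as reported, was 2 with the GC and length trend removed. It was 0 with no filter, with median centring, with all 9 libraries in the fit, with only protein-coding transcripts, with the replicate block, and with the block and the trend removal together. With 1 library left out it was 0 to 1, the 1 being Scn2a without S replicate 3. Between EWFxr1 and EW or S it was 0 under every alternative run. Over all genes the count between EW and S (4156) was 2239 with the block and the trend removed, 1398 with all 9 libraries and 1822 to 3631 with 1 left out. Between EWFxr1 and EW (60) it was 29 with a pseudocount of 0.1, 4 with no filter, 1 with the replicate block, with or without the trend removed, 3366 with all 9 libraries and 2 to 3316 with 1 left out, 3316 being without EWFxr1 replicate 1. With that library left out and the trend removed, an alternative chosen after seeing the data, it was 236. Between EWFxr1 and S (1138) it was 372 with the block, 1874 with the trend removed, 183 with its own 6 libraries and 248 to 1440 with 1 left out. The transcripts passing numbered 346 with no filter, 11 with the block and 256 to 611 with 1 library left out between EW and S (1055), and 158, 0 and 167 to 787 between EWFxr1 and EW (258). With the block ENSMUST00000200963 had an adjusted p of 0.0637 between EW and S and 0.0841 between EWFxr1 and EW, and ENSMUST00000093855 one of 0.0573 between EWFxr1 and EW. The correlations of same-numbered libraries gave no sign that the replicate numbers pair the libraries, and cannot exclude it.

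Signs turned as follows, and the cause was not tested. With the trend removed, with or without the block, Scn3a was 0.078 between EW and S. In the same setting Scn1a was -0.029, Scn2a -0.19, Scn3a -0.084, Scn2b 0.10 and Scn4b 0.21 between EWFxr1 and EW, and Scn1a -0.10 and Scn3a -0.0054 between EWFxr1 and S. When EWFxr1 replicate 1 was also left out, Scn1a was -0.059, Scn2a -0.10, Scn3a -0.045, Scn2b 0.16 and Scn4b 0.22 between EWFxr1 and EW, and Scn1a -0.13 between EWFxr1 and S. Median centring turned Scn2b to 0.13 and Scn3b to 0.052 between EWFxr1 and EW. Scn3a was 0.0045 between EW and S with only protein-coding transcripts. A pseudocount of 0.1 turned ENSMUST00000200829 to -0.0029 and ENSMUST00000094951 to 0.32 between EW and S. Signs also turned with 1 library left out: Scn2a was -0.015 to 0.057 and Scn2b -0.088 to 0.084 between EWFxr1 and EW, and Scn1a -0.065 to 0.12 between EWFxr1 and S. Of the transcripts, 6 turned between EW and S: ENSMUST00000108908 was -1.34 to 1.24, ENSMUST00000200829 -1.01 to 1.13, ENSMUST00000100067 -0.61 to 1.58, ENSMUST00000112366 -0.12 to 0.22, ENSMUST00000112371 -0.63 to 0.13 and ENSMUST00000094951 -1.08 to 0.73. Between EWFxr1 and EW, 5 did: ENSMUST00000108908 was -1.64 to 0.81, ENSMUST00000200829 -0.50 to 1.19, ENSMUST00000112366 -0.047 to 0.23, ENSMUST00000112371 -0.12 to 0.64 and ENSMUST00000175949 -0.24 to 0.24. Without S replicate 2 ENSMUST00000108908 passed, at -1.34 (adjusted p = 0.0172). Other transcripts passed with 1 library left out, ENSMUST00000082209 between EW and S at 3.81 without EW replicate 2, ENSMUST00000093855 between EW and S without S replicate 1, and ENSMUST00000170998 between EWFxr1 and EW at -0.76 without EWFxr1 replicate 1.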
